A study of Mus musculus with 6 samples.

Results

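The 40 genes described here act in mitosis, the stage in which a cell separates its copied chromosomes and divides. They were chosen by name for this role, and each was read on the arrays through probes annotated with a RefSeq transcript of that gene, taking the brightest probe. All 40 of 40 were on the array and were tested, among 23266 genes tested over 37163 gene names. The study compared bone marrow cells of C57BL/6 mice at 2 ages, labelled and sorted, which the submitters call mesenchymal stem cells of the marrow. Mice aged 3 months gave 3 samples, called young here, and mice aged 24 months gave 3, called old. No genotype, agent or treatment besides age and the sort is given, and the markers of the sort are not given in the sources used here. Each sample was hybridised in 1 colour to 1 array, from 50 ng of total RNA. Whether each sample is a different animal is not stated, and p-values below reflect only how far these samples scatter, which may in part be technical.

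Mitosis is driven by the kinase Cdk1 with its cyclins, which switch on the aurora and polo kinases, the condensation of chromosomes and the building of the spindle. Kinetochores tie chromosomes to spindle fibres, the spindle checkpoint holds anaphase back until every chromosome is attached, and the anaphase-promoting complex then destroys cyclin B and securin so that the sister chromatids part. These genes are transcribed mainly late in the cycle, which is why their summed RNA is widely used as a mark of dividing cells, and in the marrow most division takes place in blood precursors, the red cell precursors among them.

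Many genes of this class carry in their promoters a CHR element, read by the DREAM, B-MYB and FOXM1 complexes, and CCAAT boxes, read by NF-Y. The promoter windows of RefSeq (GRCm38.p6, 250 bases before to 50 after the transcript start) held 33 of the 40 genes in 34 windows. The letters TTTGAA of the CHR, searched on both strands, were in 25 of the 34 windows (73.5%), against 17.9% of all 32851 windows and 4 of 34 windows (11.8%) of DNA replication genes. CCAAT, also on both strands, was in 25 windows (73.5%), against 37.4% of all windows and 61.8% of the replication genes' windows. Both motifs stood together in 64.7% of the mitosis windows and 6.95% of all windows. Restricted to the last 110 bases of the window, the CHR letters were in 67.6% of the mitosis windows and 5.50% of all. Only TTTGAA was searched for the CHR, so a CHR match here means these letters and no other form. A match is a stretch of letters and says nothing of binding in these cells.

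The windows below belong to the 4 genes whose age groups did not overlap (Ccnb2, Bub1b, Kif11 and Espl1), to Ube2c, a window with overlapping CCAAT matches, and to Ccnb1, the partner of Ccnb2 whose window holds no CHR match. Their places in GRCm38.p6 are chr9:70421505-70421804 on the minus strand for Ccnb2, chr2:118597961-118598260 on the plus strand for Bub1b, and chr19:37376132-37376431 on the plus strand for Kif11. Those of Espl1, Ube2c and Ccnb1 are chr15:102296043-102296342 on the plus strand, chr2:164769679-164769978 on the plus strand and chr13:100786437-100786736 on the minus strand. Each reads 5′ to 3′ along its gene, with the matches to TTTGAA or CCAAT on either strand in capitals.
Ccnb2: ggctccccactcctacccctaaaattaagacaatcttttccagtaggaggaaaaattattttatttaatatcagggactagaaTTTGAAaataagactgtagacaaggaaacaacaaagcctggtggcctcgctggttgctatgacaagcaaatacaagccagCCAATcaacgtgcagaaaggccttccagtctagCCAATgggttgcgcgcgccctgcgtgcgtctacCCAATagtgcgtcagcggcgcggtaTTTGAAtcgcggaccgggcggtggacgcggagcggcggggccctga
Bub1b: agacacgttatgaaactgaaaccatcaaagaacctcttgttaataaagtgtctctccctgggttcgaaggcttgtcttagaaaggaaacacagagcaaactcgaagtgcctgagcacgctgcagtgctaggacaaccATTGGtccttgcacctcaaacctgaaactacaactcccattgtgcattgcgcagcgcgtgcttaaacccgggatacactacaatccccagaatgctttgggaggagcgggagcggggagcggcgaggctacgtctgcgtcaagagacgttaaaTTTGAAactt
Kif11: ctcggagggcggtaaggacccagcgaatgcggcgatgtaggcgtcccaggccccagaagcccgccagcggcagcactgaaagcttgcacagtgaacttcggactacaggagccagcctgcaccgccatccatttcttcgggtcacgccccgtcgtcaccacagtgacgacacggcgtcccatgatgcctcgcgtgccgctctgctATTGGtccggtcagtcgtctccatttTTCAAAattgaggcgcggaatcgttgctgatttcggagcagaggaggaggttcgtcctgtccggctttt
Espl1: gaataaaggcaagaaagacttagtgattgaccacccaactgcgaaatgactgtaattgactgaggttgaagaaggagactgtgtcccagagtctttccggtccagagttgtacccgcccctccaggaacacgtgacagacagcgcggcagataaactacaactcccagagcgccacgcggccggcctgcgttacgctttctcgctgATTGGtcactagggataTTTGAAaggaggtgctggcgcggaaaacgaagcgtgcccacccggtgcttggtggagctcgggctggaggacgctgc
Ube2c: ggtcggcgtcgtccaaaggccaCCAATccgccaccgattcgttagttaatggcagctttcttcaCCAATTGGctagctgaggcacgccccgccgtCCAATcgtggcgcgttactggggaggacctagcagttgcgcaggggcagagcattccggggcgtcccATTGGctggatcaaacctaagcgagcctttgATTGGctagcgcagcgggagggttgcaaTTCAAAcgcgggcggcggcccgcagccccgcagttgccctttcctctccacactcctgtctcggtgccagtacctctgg
Ccnb1: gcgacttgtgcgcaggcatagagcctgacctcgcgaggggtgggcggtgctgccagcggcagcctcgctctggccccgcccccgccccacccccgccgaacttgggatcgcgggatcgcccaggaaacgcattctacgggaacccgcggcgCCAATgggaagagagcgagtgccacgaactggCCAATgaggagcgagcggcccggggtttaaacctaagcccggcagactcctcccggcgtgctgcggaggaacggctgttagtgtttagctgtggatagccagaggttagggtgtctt

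Ccnb2 had CHR matches starting at bases 84 and 255 of the window and CCAAT matches at bases 164, 197 and 230. In Kif11 and Espl1 a single CCAAT match at base 206 or 207 stood shortly before a single CHR match, at base 232 and 224. Bub1b had its CHR match at base 291, past the transcript start, and a CCAAT match at base 138. Ccnb1 had CCAAT matches at bases 152 and 184. The old minus young difference, described below, had a median of -0.05 log2 units over the 24 genes with a CHR match, with a range from -0.40 to 0.33. Over the 9 without TTTGAA (Ccnb1, Bub1, Mad2l1, Cenpe, Nuf2, Nusap1, Melk, Pttg1 and Birc5) the median was -0.03, from -0.22 to 0.17.

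Signals below are log2 processed intensities minus the 75th percentile of their array, so 0 is the brightness of that percentile, and each difference is the mean of old minus the mean of young. On a scale of this kind the signals of different probes are not set against each other. The 75th percentile of the raw signal was 315 to 393 on the young arrays and 229 to 318 on the old ones, and 55.3% to 60.0% and 50.9% to 53.4% of probes were well above background. No spot was saturated. Over all genes, limma called 1864 of 23266 (8.01%) at an adjusted p under 0.05, and 49.6% of the calls were higher in old (39.0% with the deposited log2 table). Leaving out young 1, 2 or 3 left 768, 63 and 321 calls, and leaving out old 1, 2 or 3 left 1154, 1 and 5. In the file headers, the second part of the array barcode was 1 for the young arrays and 2 for the old ones. What this number stands for is not stated, and it cannot be told apart from age. Of 14 markers listed for the labelled mesenchymal cells, Pdgfra, Pdgfrb, Prrx1, Twist1 and Foxc1 were well above background on 0 of 6 arrays, while 6 (Lepr, Cxcl12, Thy1, Ly6a, Col1a2 and Eng) were so on all 6 and the other 3 on 3 or 4. By contrast, 17 of 18 measured erythroid markers were well above background on all 6. So were 7 of 7 primary granule and 10 of 10 late granule genes of neutrophils. For early B cell, monocyte and macrophage, and stem and progenitor markers on the array, the counts were 9 of 14, 6 of 9 and 7 of 10. Over the whole array, 20369 of 37163 gene names were well above background on all 6 by their brightest probe.

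The RNA of the mitosis genes was present at both ages, and no gene of the 40 passed the test between them. All 40 were well above background on all 6 arrays. With limma, 0 of 40 were called higher or lower in old, against 8.01% of all genes, 3.98% called higher and 4.04% lower. At an unadjusted p under 0.05 there were 3, Kif11, Espl1 and Ccnb2, against 27.8% of all genes, and the smallest adjusted p was 0.101, for Kif11. In these bulk samples, fewer cells of a type and less RNA per cell cannot be told apart, so a level here mixes the share of dividing cells with the RNA each one holds.

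The differences were small as well as short of the threshold. Their median was -0.04 log2 units, from -0.40 for Cenpf, a protein of the outer kinetochore, to 0.33 for Kif11, the motor that pushes the spindle poles apart. The median over all tested genes was 0.07. The size of the difference, whatever its sign, was under 0.25 in 36 of 40 genes (90.0%), against 60.2% of all genes, and its median was 0.11 against 0.19. The 95% confidence interval lay within 1 log2 unit of no change, a 2-fold change, for all 40 genes and within 0.5 for 32. The widest bound was 0.85, a 1.80-fold change, for Cenpf. The median standard error was 0.11 for these genes and 0.13 for all.

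**Figure D1:**
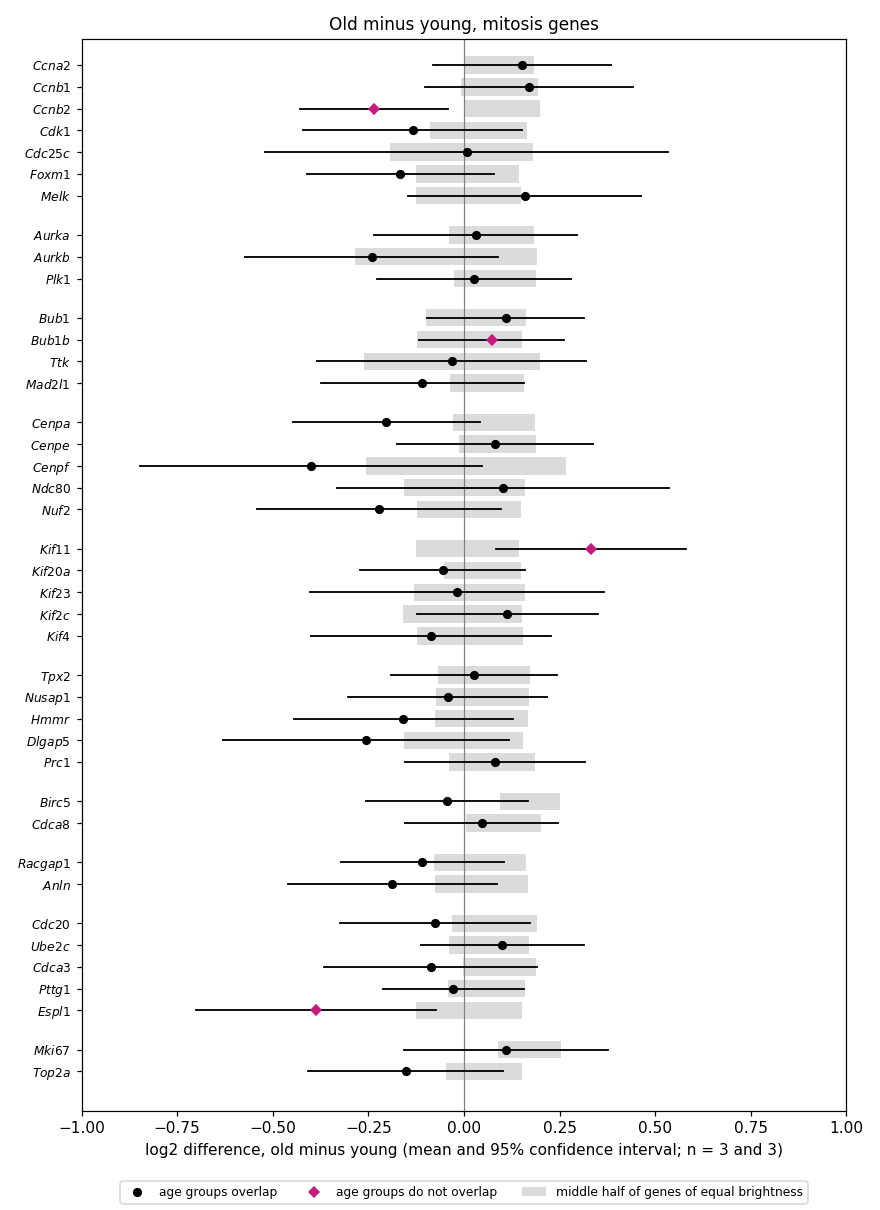
Log2 difference, old minus young, of the 40 mitosis genes in order of role (points, means of n = 3 and 3; lines, 95% confidence intervals), over grey bars from the lower to the upper quartile of genes of equal brightness. Every interval lies between -1 and 1, and diamonds mark the 4 genes whose age groups do not overlap.

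Since the spread and the share of calls can change with brightness, each gene was also set beside the tested genes with a symbol whose mean signal lay within 0.25 log2 units of its own, 67 to 767 genes for each. Of those neighbours, a mean of 4.46% were called (2.14% higher and 2.32% lower), and their median absolute difference averaged 0.14. The mitosis genes lay below the median of their neighbours in 28 of 40 cases, by a median of -0.08. Of the 40, 21 lay between the quartiles of their neighbours, 17 below the lower quartile and 2, Kif11 and Melk, above the upper. No test was made of this offset. It ranged from -0.15 to -0.05 over the alternatives, with 22 to 32 genes below their neighbours.

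The age groups did not overlap in 4 of 40 genes, against 36.0% of all genes tested and a mean of 38.7% among the neighbours of equal brightness. Ccnb2 and Espl1 lay lower in all old samples than in any young one, and Kif11 and Bub1b higher. The share for old above young was 22.9% over all genes and that for old below young 13.1%. In the other 36 the ages were interleaved.

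At the centre of the list stand Cdk1, the cyclins and their activators, 7 genes with a median difference of 0.01. Ccnb2, a B-type cyclin of Cdk1, had signals of 6.48, 6.46 and 6.57 in young samples 1 to 3 and 6.28, 6.21 and 6.31 in old samples 1 to 3. The highest old sample lay below the lowest young one. The difference was -0.24 ± 0.08 (SE, 95% confidence interval -0.43 to -0.04; limma adjusted p = 0.123). The call depended on the processing. The adjusted p was 0.0328 with the normexp background correction (difference -0.35), 0.0385 with a variance trend, and 0.0504, 0.0536 and 0.0501 with quantile, cyclic loess and deposited values (differences -0.36, -0.36 and -0.35). It reached 0.288 at the most over the alternatives.

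Ccnb1, the main mitotic B-type cyclin, measured 5.29, 5.33 and 5.51 in young and 5.50, 5.44 and 5.71 in old. Old samples sat a little higher and the groups overlapped, with a difference of 0.17 ± 0.11 (limma adjusted p = 0.374). Cdk1, the kinase itself, measured 3.63, 3.66 and 3.96 in young and 3.71, 3.53 and 3.60 in old, a difference of -0.13 ± 0.12. Young 3 alone stood out among its 6 values. Ccna2, the A-type cyclin that opens mitosis, differed by 0.15 ± 0.10, and Cdc25c, the phosphatase that activates Cdk1, by 0.01 ± 0.22. Cdc25c had the lowest value, 0.06, in young 1 and 0.67 and 0.72 in the other young samples. Foxm1, a transcription factor for this class of genes, differed by -0.17 ± 0.10, and Melk, a kinase of dividing cells, by 0.16 ± 0.12.

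Among the mitotic kinases outside the checkpoint, Aurka, which matures the spindle poles, differed by 0.03 ± 0.11 and Plk1, the polo kinase, by 0.03 ± 0.10. Aurkb, the kinase of the chromosomal passenger complex, measured -0.77, -0.75 and -0.56 in young and -0.96, -0.70 and -1.14 in old. Old 1 and old 3 were the lowest samples while old 2 lay among the young ones, a difference of -0.24 ± 0.14 (limma adjusted p = 0.303). On their brightest probes the non-kinase passenger subunits were among the steadiest, with Birc5 (survivin) at -0.04 ± 0.09 and Cdca8 (borealin) at 0.05 ± 0.08. A further Cdca8 probe differed by -0.14. Birc5 spanned only 7.68 to 7.83 in young and 7.61 to 7.75 in old.

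The spindle checkpoint genes had a median difference of 0.02. Bub1b, which encodes BubR1 of the inhibitor of the anaphase-promoting complex, measured 2.56, 2.59 and 2.59 in young and 2.72, 2.65 and 2.59 in old. Its groups did not overlap, yet the lowest old and the highest young value agreed at 2 decimals, and the difference was 0.07 ± 0.08 (limma adjusted p = 0.586). Bub1, a kinetochore kinase, differed by 0.11 ± 0.08, and Ttk, the kinase that starts the checkpoint signal, by -0.03 ± 0.14. Mad2l1, which encodes Mad2, the direct inhibitor of Cdc20, differed by -0.11 ± 0.11.

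The 5 kinetochore and centromere genes had the lowest median of the 10 roles, -0.20, and none of them passed the test. Cenpf, which binds kinetochores and microtubules, measured -3.01, -2.55 and -2.47 in young and -2.84, -3.14 and -3.25 in old. The 2 lowest values were old, but old 1 lay above young 1. The difference was -0.40 ± 0.18 (95% confidence interval -0.85 to 0.05; limma adjusted p = 0.217). Over the alternatives it ran from -0.57 to 0.08. Cenpa, the histone variant that marks centromeres, differed by -0.20 ± 0.10, and Nuf2, of the complex that grips microtubules, by -0.22 ± 0.13. Ndc80, the partner of Nuf2 in that complex, differed by 0.10 ± 0.18, and the kinesin of the kinetochore Cenpe by 0.08 ± 0.11.

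Of the 5 kinesin motors, Kif11 (Eg5) had the largest positive difference of the 40. It measured 1.83, 1.90 and 1.73 in young and 2.16, 2.01 and 2.28 in old. Every old sample was above every young one, by 0.33 ± 0.10 (95% confidence interval 0.08 to 0.58; limma adjusted p = 0.101, from 0.0531 to 0.236 over the alternatives). The other motors did not share this pattern. Kif2c, which takes microtubules apart at centromeres, differed by 0.11 ± 0.10, Kif20a, a motor of the central spindle, by -0.06 ± 0.09, Kif23, the motor of centralspindlin, by -0.02 ± 0.16, and the chromosome-arm motor Kif4 by -0.09 ± 0.13.

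The genes of spindle assembly had a median of -0.04. Tpx2, which activates Aurka on the spindle, differed by 0.03 ± 0.09, Nusap1, a protein that bundles microtubules, by -0.04 ± 0.11, and Prc1, which crosslinks the midzone, by 0.08 ± 0.10. Hmmr, a spindle protein that also binds hyaluronan, and Dlgap5, which stabilises kinetochore fibres, had differences of -0.16 ± 0.12 and -0.26 ± 0.15. Dlgap5 was highest in young 3, at 1.96, and ran from 1.26 to 1.65 in the other 5 samples. In cytokinesis, Racgap1, the partner of Kif23 in centralspindlin, differed by -0.11 ± 0.09 and Anln, a scaffold of the contractile ring, by -0.19 ± 0.11.

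Of the genes that end mitosis, Espl1 encodes separase, the protease that opens cohesin rings at anaphase. It measured 2.57, 2.44 and 2.55 in young and 2.37, 2.09 and 1.94 in old. All old samples were below all young ones, by -0.39 ± 0.13 (95% confidence interval -0.70 to -0.07; limma adjusted p = 0.120, from 0.0594 to 0.261 over the alternatives). Pttg1, which encodes securin, the inhibitor of separase, was nearly flat at -0.03 ± 0.08, with all 6 values between 4.34 and 4.44. Cdc20, the activator of the anaphase-promoting complex, differed by -0.08 ± 0.10. Ube2c, its ubiquitin-conjugating enzyme, differed by 0.10 ± 0.09, and Cdca3, a trigger of mitotic entry, by -0.09 ± 0.11.

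Mki67, the source of the Ki-67 antigen that coats mitotic chromosomes, measured 7.77, 7.61 and 7.64 in young and 7.84, 7.61 and 7.91 in old. The groups overlapped, with a difference of 0.11 ± 0.11 (95% confidence interval -0.16 to 0.38; limma adjusted p = 0.557). Top2a, the topoisomerase that untangles sister chromatids, measured 4.30, 4.46 and 4.48 in young and 4.41, 4.19 and 4.18 in old. It differed by -0.15 ± 0.10 (95% confidence interval -0.41 to 0.10; limma adjusted p = 0.390), also with overlap. The differences of these 2 commonly used marks of division had opposite signs, and both confidence intervals included 0.

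Across the 40 genes, the spread within an age was shared by many genes of the same array. Young 3 gave the highest young value in 27 of 40 genes (67.5%), whereas it did so in 32.7% of all genes tested. Old 2 gave the lowest old value in 29 of 40 (72.5%), against 29.5% of all genes. Young 1 was the lowest young sample in 23 genes. Old 1 and old 3 were the highest old sample in 20 and 18 genes and old 2 in 2. Taken from each gene's mean over the 6 arrays, the median deviation of the 40 was -0.05, 0.00 and 0.11 in young 1 to 3 and 0.04, -0.11 and 0.03 in old 1 to 3, so the ages overlapped in this measure too. With young 3 or old 2 left out, the median difference was 0.01 in either case; with young 1 or old 3 left out it was -0.08 or -0.10.

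**Figure D2:**
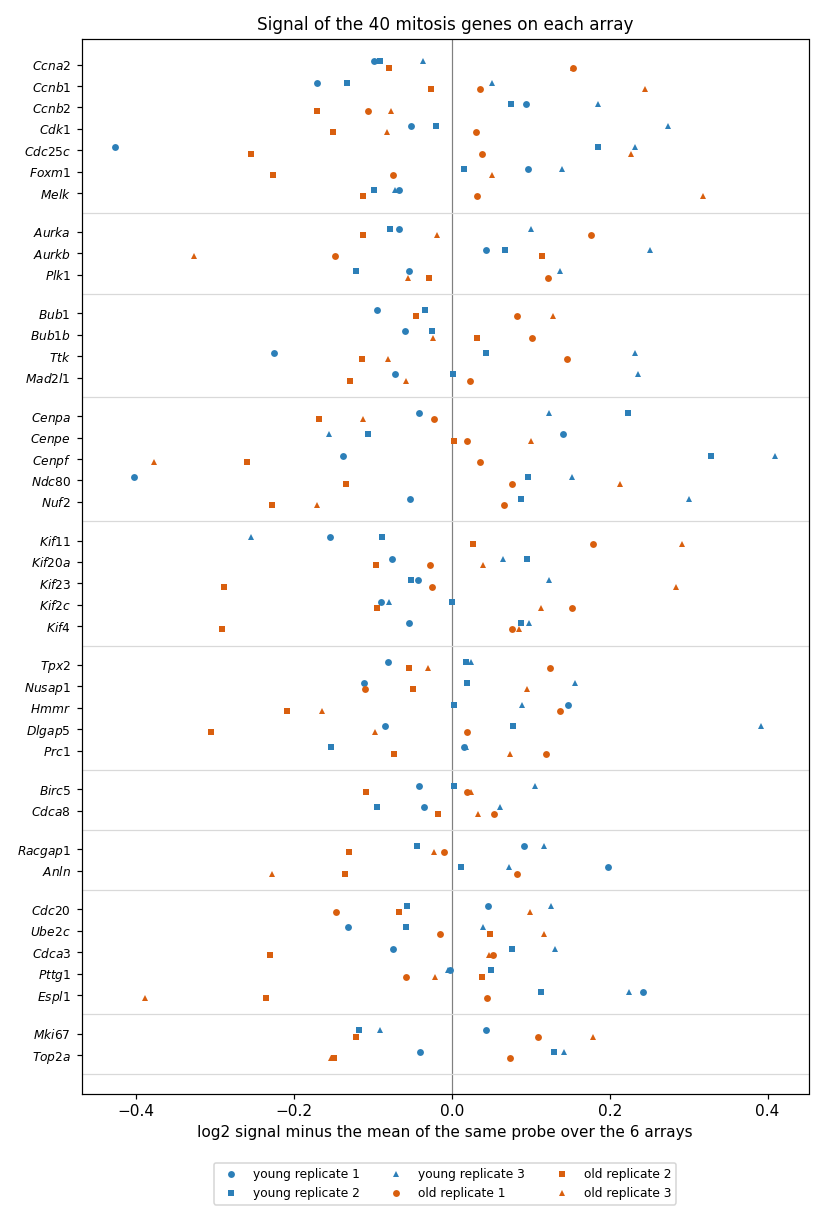
Log2 signal of each mitosis gene on each array minus that probe's mean over the 6 arrays, with young samples in blue and old samples in orange and 1 marker shape per replicate. Young 3 (blue triangles) is the highest young sample in 27 genes and old 2 (orange squares) the lowest old sample in 29.

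For 14 of the genes the array carried 18 further probes, all measured, and these gave another reading of the same genes. Their differences ran from -0.36 to 0.55, and 14 of 18 had the sign of the brightest probe. The median gap between both readings was 0.10. Mki67 differed by 0.21 on its further probe and Racgap1 by -0.07. The further probe of Foxm1, at -0.19, lay near its brightest probe, and that of Dlgap5 gave -0.11 where the brightest gave -0.26.

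Gaps above the standard error of the gene were found for probes of Ccnb1, Cdk1, Tpx2, Cdca8, Ube2c and Nuf2. The further probe of Cdca8 gave -0.14 and that of Ube2c -0.01, where the brightest gave 0.05 and 0.10. That of Nuf2 gave -0.36 against -0.22. The gaps were widest for Ccnb1, Cdk1 and Tpx2. A further Ccnb1 probe measured 2.03, 2.34 and 2.42 in young and 2.89, 2.49 and 3.06 in old, without overlap and with a difference of 0.55. The remaining one measured 2.10, 2.41 and 2.59 in young and 2.26, 2.10 and 2.09 in old, a difference of -0.22. All Ccnb1 probes are annotated with the same transcript, and they stood on both sides of no change. A further Cdk1 probe gave -1.95, -1.92 and -1.97 in young and -1.68, -1.74 and -1.04 in old, a difference of 0.46, where the brightest probe gave -0.13 and the other one -0.17. The further Tpx2 probe, annotated with another transcript of the gene, differed by 0.39 without overlap, against 0.03 for the brightest. The readings of Ccnb1, Cdk1 and Tpx2 therefore depended on the probe, as did the signs of Cdca8 and Ube2c. Which transcripts or sites each probe reads was not tested.

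**Figure D3:**
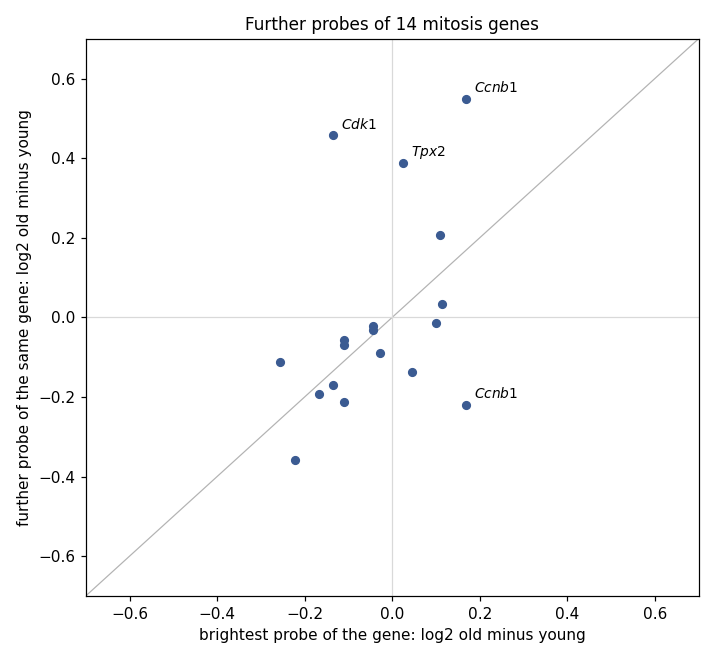
Log2 difference, old minus young, of each of 18 further probes (vertical) against the brightest probe of the same gene (horizontal), with the line of equality. Most points lie near the line, with a median gap of 0.10, and probes of Ccnb1, Cdk1 and Tpx2 lie farthest from it.

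The other genes of the same machinery were read from the same fit. Over 6 lists with 157 tested genes, limma called 3 higher in old and 0 lower, with 9 higher and 14 lower at an unadjusted p under 0.05. Over all genes 3.98% were called higher, 4.04% lower and 27.8% had an unadjusted p under 0.05. These lists held fewer calls than that background, but the share called among genes of equal brightness was not taken for them. The median difference was -0.02. The 35 other kinetochore genes had no call (2 higher and 5 lower at an unadjusted p under 0.05) and a median of -0.03, and the smallest p was that of Knl1, the scaffold of the outer kinetochore, at 0.62 ± 0.14 (limma adjusted p = 0.0526), which passed the test under 3 of 16 alternatives. The 17 genes of entry into and exit from mitosis had no call either (1 higher and 2 lower unadjusted), with Cdc25b, a phosphatase that activates Cdk1, at -0.66 ± 0.21 (limma adjusted p = 0.105). The 40 DNA replication genes, which act earlier in the cycle, had no call (0 higher and 2 lower unadjusted) and a median of -0.03. Rpa3, of the protein that coats single-stranded DNA, was at -0.25 ± 0.07, and Pcna, the sliding clamp, at -0.25 ± 0.09. Rpa3 passed the test under 5 of 16 alternatives and Pcna under none.

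The 3 called genes were Cdc27, Pds5a and Knstrn. Cdc27, a subunit of the anaphase-promoting complex, measured 1.67, 1.44 and 1.43 in young and 2.20, 2.07 and 2.22 in old, a rise of 0.65 ± 0.10 (limma adjusted p = 0.0276). Its groups were well apart, but its further probe differed by -0.04. Pds5a, a regulator of cohesin, measured 1.70, 1.71 and 1.54 in young and 2.47, 2.26 and 2.69 in old, a rise of 0.82 ± 0.13 (limma adjusted p = 0.0276), and had 1 probe. Knstrn, a kinetochore and spindle protein, measured 6.02, 5.71 and 5.92 in young and 6.41, 6.45 and 6.85 in old, a rise of 0.68 ± 0.15 (limma adjusted p = 0.0491). Its further probe differed by -0.09, and its call was lost with median, quantile, cyclic loess and deposited values (adjusted p of 0.0512, 0.0743, 0.0806 and 0.0721). Leaving out any 1 sample ended all these calls except that of Cdc27 without young 1. The adjusted p was then 0.0491 to 0.0846 for Cdc27, 0.0548 to 0.0812 for Pds5a and 0.0679 to 0.137 for Knstrn.

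Of the 16 tested subunits and regulators of the anaphase-promoting complex, 14 had a positive difference, with a median of 0.09, and in 8 the old samples all lay above the young ones, as they did in 22.9% of all genes tested. Besides Cdc27, Anapc2, its cullin subunit, differed by 0.39 ± 0.10 and Cdc23 by 0.26 ± 0.09, and neither passed the test (limma adjusted p = 0.0747 and 0.126). The median of their neighbours of equal brightness was 0.07. The condensin and cohesin list had a median of -0.06, with 13 of 19 differences negative. All old samples lay below the young ones in 7 of its genes and above them in 2. The shares over all genes were 13.1% and 22.9%. Over all 157 genes of the 6 lists, 28 lay below and 19 above in this way. The list of other spindle, motor and cytokinesis genes had a median of -0.02. In that list, Pimreg, a gene of dividing cells, differed by -1.56 ± 0.52 (limma adjusted p = 0.121), and was well above background on 5 of 6 arrays. It measured -1.71, -1.56 and -1.78 in young and -2.91, -2.34 and -4.47 in old. Without old 3 its difference was -0.94, and with the normexp correction it was -0.41.

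**Figure D4:**
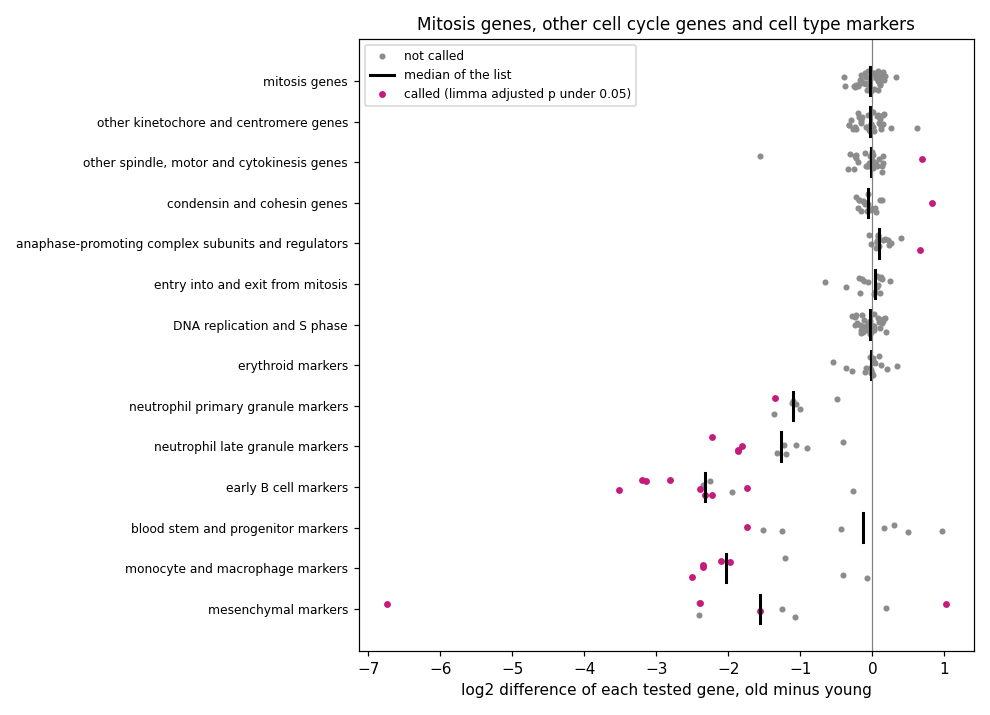
Log2 difference, old minus young, of every tested gene of the mitosis list, of 6 further cell cycle lists and of 7 lists of cell type markers, with the median of each list as a bar and genes called by limma in magenta. The cell cycle lists and the erythroid markers have medians between -0.06 and 0.09, while 5 marker lists have medians from -1.11 to -2.33.

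Of the 7 lists of cell type markers, 5 had median differences from -1.11 to -2.33 between the same samples, while the erythroid list and the stem and progenitor list lay near 0. Over all genes, limma called 3.98% higher and 4.04% lower. Calls over the whole array fell to 63, 1 and 5 without young 2, old 2 or old 3. Whether the marker calls held in those fits was not examined. The erythroid list had 0 of 18 genes called by limma (1 higher and 1 lower at an unadjusted p under 0.05) and a median of -0.02, and its median signal was 4.51 to 4.79 in young and 4.45 to 4.64 in old. Early B cell markers had 8 of 13 called lower in old and a median of -2.33, with a median signal from -0.38 to 1.14 in young and from -2.35 to -1.16 in old. Late granule genes of neutrophils had 4 of 10 called lower (median -1.27), with a median signal of 5.77 to 6.82 in young and 4.54 to 5.23 in old. Primary granule genes had 1 of 7 called lower (median -1.11; 3.08 to 3.79 in young and 2.33 to 3.14 in old). Of the monocyte and macrophage markers 5 of 8 were called lower (median -2.04; -0.94 to 0.09 in young and -2.22 to -1.77 in old). The stem and progenitor list had 1 of 8 called lower, with a median of -0.14 (-0.68 to -0.34 in young and -2.27 to -0.34 in old). Mesenchymal genes had 3 of 9 called lower and 1 higher (median -1.56; 0.19 to 1.69 in young and -1.49 to -1.12 in old). A gene needed only 3 of 6 arrays well above background, so a marker could enter the test through 1 age alone. Col1a1 and Mrc1 were so on 3 arrays and Ebf1 on 4, and all were called lower. Where those were the young arrays, a lower old value follows in part from the filter. Such genes are included in the counts and medians of these lists. Between these same samples the brightest probe of no mitosis gene differed by more than 0.40 in either direction, while further probes of Ccnb1 and Cdk1 reached 0.55 and 0.46. The part that cell composition has in the values of the mitosis genes was not tested.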

How the data were processed

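Total RNA of 6 samples was hybridised to Agilent 1-colour arrays, 1 per sample, and groups were taken from the sample titles. The spot intensity used is the processed signal that the authors deposited as the scanner software wrote it, background-subtracted within each array per the file headers and not scaled between arrays. The software was Agilent Feature Extraction, version 10.7.3.1 per the file headers and 10.5.1.1 per the submitters' processing notes. As an alternative, log2 values deposited by the authors in 1 table for the series were used (52095 of 55681 probes). How that table was scaled is not known here.

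Control spots and spots marked as outliers were left out, repeated spots were averaged, and the 75th percentile of each array was subtracted from the log2 signal. Symbols came from a RefSeq gene table (GRCm38.p6) by accession, for 26413 probes (47.4%). A gene was read from its brightest probe over all 6 arrays and tested where at least 3 of 6 arrays had this probe well above background. With R 4.3.3, limma 3.58.1 (lmFit, then eBayes, no covariates) compared old with young, with Benjamini-Hochberg adjustment over all 23266 genes, a threshold of 0.05 and 95% confidence intervals from the same fit. The number of arrays limits the precision. The steps were tested on simulated data. Python 3.11.15 with pandas 2.3.3 read the tables.

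The members and lists were chosen with earlier results of these data known, so counts over them are descriptions without a test of the list. All 40 mitosis genes could be named, and of each other list the 3 tested genes with the smallest p, besides markers whose lack of signal bears on the labelled cell type. Kif14 and Kifc1 had no probe under an accession of their symbol, and Anapc10 was well above background on 0 arrays. Samples of the 2 ages share replicate numbers, but the correlations of same-numbered samples' deviations were -0.03, 0.02 and -0.01, so the numbers were not used to pair them. The promoter windows of Aurkb, Ccna2, Cdc25c, Dlgap5, Foxm1, Kif20a and Tpx2 were not analysed here.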

Additional observations from a re-analysis of the deposited data

How the results depend on the processing

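No mitosis gene was called under 14 of 16 alternatives; Ccnb2 was the 1 call with the normexp correction and 1 call with a variance trend. Over the whole array, 2911 genes were called with normexp, 3280 with the trend, 0 without a filter on dim probes (11662 at an unadjusted p under 0.05 in limma), and 1 to 1154 with 1 sample left out. With the replicate block, limma called 0 genes (5554 unadjusted), none of them mitosis or pathway genes, and no sample correlated best with its own number. The mitosis genes whose ages did not overlap numbered 7 with quantile, cyclic loess and deposited values, each time 1 higher and 6 lower in old. With normexp they numbered 9 (1 higher and 8 lower), against 4 as reported (2 and 2). With 1 sample left out they numbered 6 to 13, from 3 higher and 10 lower to 8 and 4. Genes with a positive difference numbered 9 or 10 with those scalings and 12 with normexp, against 17 as reported. The median difference over all genes was then -0.01 to 0.02 with those scalings and 0.09 with normexp, against 0.07. Over all genes the share without overlap was 33.0% to 33.2% with those scalings, 37.5% with normexp and 43.2% to 48.7% with 1 sample left out. Calls among the other cell cycle lists numbered 8 with normexp, 9 with the trend, 1 with the mean of all probes, 0 without the filter, 0 with the replicate block and 0 to 1 with 1 sample left out, against 3. Fewer samples were fitted in the leave-one-out settings, and the other causes were not tested. The median difference of the mitosis genes ran from -0.12 to 0.01, each time within the replicate spread of 0.08 of the reported -0.04, and 23 of the 40 kept their sign throughout, while 17 changed it in at least 1 alternative without being called. These sign changes were counted whether or not a gene was called. The normexp fit on median signals was chosen after seeing the data, since the planned mean signals were not in the columns given, and that planned fit was not run.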

Other observations

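Within each array, the brightest Ccnb1 probe minus the Ccnb2 probe gave -1.18, -1.13 and -1.05 in young and -0.78, -0.77 and -0.60 in old, a difference of 0.41 log2 units without overlap between the ages. The scaling between arrays cancels in this difference, which was chosen after its values were seen and was not tested. With the further Ccnb1 probes in its place the difference was 0.02, with overlap, and 0.79, without it, so the balance of the B-type cyclins between the ages depended on the Ccnb1 probe.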
